A study of Mus musculus with 19 samples.

Results

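The genes described here encode the chains of collagens and laminins, the structural proteins of basement membranes and of fibrillar matrix. Members were the protein-coding genes whose symbol is that of a collagen chain (Col, a number, a, a number) or of a laminin alpha, beta or gamma chain (Lama, Lamb or Lamc and a number). Of 21806 protein-coding genes in the summed table, 55 met this rule. Their function splits them into 20 basement membrane members (type IV collagens, laminins and the collagens of the basement membrane zone), 11 fibrillar collagens and 24 other collagens. Levels are in TPM, a share of transcripts corrected for their length that sums to 1000000 in each library. A test across genes could be made for 23 of the 55, which reached 1 TPM in at least 3 libraries: 13 basement membrane, 5 fibrillar and 5 other members. The filter looks at all libraries together, and 10 of the 23 had fewer than 3 stem cell libraries at 1 TPM, so that those 10 were tested because of their level in the epiblast-like cells. They are Col4a2, Col4a5, Col4a6, Lamb3, Col7a1, Col5a1, Col5a3, Col9a2, Col16a1 and Col22a1.

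Basement membranes are thin sheets of matrix in which a laminin network, linked to cell surface receptors, and a type IV collagen network are joined by nidogens and the proteoglycans perlecan and agrin. A laminin is a heterotrimer of an alpha, a beta and a gamma chain, and the alpha chain largely sets which receptors it binds. In the early mouse embryo such a sheet underlies the epiblast, and laminins that hold the alpha 5 chain are a known substrate for pluripotent cells in culture. Fibrillar collagens build the banded fibres of connective tissue and are usually described in mesenchymal cells.

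Total RNA depleted of ribosomal RNA was sequenced from 19 mouse cell libraries in 6 groups. The embryonic stem cells (mESC) grew in N2B27 medium with LIF and inhibitors of the kinases GSK3 and MEK1/2, a condition that holds them in the naive state. Epiblast-like cells (EpiLC) were made from them over 5 days with FGF5 and Activin A and no LIF, which models the step from the naive to the formative epiblast. Wildtype XX cells of the LF2 line gave 3 mESC and 3 EpiLC libraries, and wildtype XY cells of the E14 line gave 3 of each. Cells of the LF2 line labelled Tet3-/-, a genotype without the dioxygenase TET3 that oxidizes methylated cytosine, gave 4 mESC libraries (mutants #1 to #4) and 3 EpiLC libraries (mutants #1, #3 and #4). The labels do not say whether the mutants are separate clones. Sex and cell line cannot be told apart in the comparison of XX with XY, since XY cells came only from E14. Nothing in the labels says that replicates are separate cultures, so p-values measure the spread between these libraries, which may be technical. Below, values of a group are given in the order of the replicate or mutant number.

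The labelled states were checked on marker genes. Summed over Klf4, Esrrb, Tfcp2l1, Zfp42 and Nanog, naive markers lay between 285 and 697 TPM in the mESC libraries and between 26.5 and 91.3 TPM in the EpiLC libraries. The EpiLC groups differed in what made up this sum. In XY EpiLC it was mostly Nanog (mean 78.1 TPM), with Klf4, Esrrb, Tfcp2l1 and Zfp42 at 0.335, 0.714, 1.24 and 6.92 TPM. XX EpiLC kept means of 1.26, 12.6, 10.0 and 17.3 TPM of these genes, beside 39.6 TPM of Nanog. Tet3-/- EpiLC had 1.69, 3.71, 3.35 and 7.26 TPM, beside 23.6 TPM of Nanog. Fgf5, Otx2, Pou3f1 and Dnmt3b, which mark the formative state, summed to 250 to 317 TPM in XY EpiLC and to 38.8 to 46.2 TPM in XX EpiLC. In Tet3-/- EpiLC the same sum was 42.4 and 41.3 TPM in mutants #1 and #4 and 146 TPM in mutant #3, a library that also stood apart in the members described below. The formative sum in mESC was 6.86 to 20.5 TPM in XY, 19.1 to 28.5 TPM in XX and 22.0 to 29.3 TPM in Tet3-/- cells. Mean Otx2 fell from mESC to EpiLC in XX (18.9 to 11.0 TPM) and Tet3-/- cells (20.6 to 17.0 TPM). It rose in XY cells (1.74 to 62.6 TPM), and the means of Fgf5, Pou3f1 and Dnmt3b rose in every line. Pou5f1 and Sox2 mark pluripotent cells in general. From mESC to EpiLC, mean Pou5f1 went from 296 to 213 TPM in XX, 423 to 394 TPM in XY and 301 to 217 TPM in Tet3-/- cells. Mean Sox2 fell from 73.0 to 15.8 TPM in XX, 90.4 to 3.18 TPM in XY and 103 to 7.02 TPM in Tet3-/- cells. Markers of primitive and parietal endoderm, a lineage rich in basement membrane, summed over 12 genes to 0.847 to 1.17 TPM in XY mESC and 8.22 to 9.65 TPM in XY EpiLC. The sum was 5.84, 1.86 and 9.27 TPM in XX mESC and 3.82 to 4.79 TPM in XX EpiLC. In Tet3-/- cells it was 5.16, 1.27, 1.52 and 5.27 TPM in mESC and 5.11, 16.6 and 3.25 TPM in EpiLC, with the highest value in mutant #3. Of these 12, 8 were below 1 TPM in every XY EpiLC library, 11 in every XX EpiLC library and 6 in every Tet3-/- EpiLC library, and Sox7, Cubn, Amn, Ttr, Afp and Thbd were below 1 TPM in all 19. The 8 fibroblast markers summed to at most 1.79 TPM in any library. Trophoblast markers summed to between 11.3 and 19.1 TPM in the mESC libraries. They summed to 1.89 to 2.39 TPM in XY EpiLC, to 8.67 to 11.0 TPM in XX EpiLC and to 3.49 to 14.2 TPM in Tet3-/- EpiLC. In XX EpiLC this sum was mostly Krt7, Plet1 and Tfap2c, with means of 4.54, 2.77 and 2.01 TPM. Cdx2, Elf5 and Hand1 were below 1 TPM in every XX EpiLC library. The part that other cell types had in the results was not tested, and in these bulk libraries fewer cells of a type and less RNA per cell cannot be told apart. Tet3 itself was at 0.532 to 0.916 TPM in Tet3-/- mESC against 0.536 to 1.06 TPM in XX mESC, and at 0.693 to 1.42 TPM in Tet3-/- EpiLC against 1.21 to 1.90 TPM in XX EpiLC. These ranges overlap, so the summed gene level does not check the genotype labels, and which part of the gene was deleted is not given in the sources used here.

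The scale of TPM also moved between groups. A single non-coding RNA, Rn7s1, held 23.5 to 43.7% of all TPM in every library but was lowest in XY EpiLC (24.9% ± 2.21, SD, n = 3, against 39.2% ± 0.295, SD, n = 3, in XX EpiLC). Over the 14972 genes tested, the change from mESC to EpiLC had a median log2 value of 0.14 for XX cells, 0.54 for XY and -0.13 for Tet3-/- cells, and whether Rn7s1 set these medians was not tested. It was -0.59 for XX against XY EpiLC, -0.19 for XX against XY mESC, 0.19 for Tet3-/- against XX mESC and -0.07 for Tet3-/- against XX EpiLC. Fold changes below are differences of log2(TPM + 1), and the added 1 makes them too small for low genes. The same test was run on values scaled by median-of-ratios factors, which brings these medians to within 0.02 of 0, and a scaled value is given wherever it ends a call.

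Members that reached 1 TPM in at least 3 libraries of each state, so that neither state alone brought them into the test, were more often called higher than lower in all 3 transitions. There were 12 of them. In XX cells 8 rose and 1 fell, in XY cells 10 rose and 1 fell, and in Tet3-/- cells 7 rose and 2 fell, with median log2 fold changes of 1.26, 1.65 and 1.06. Of the 11602 genes that met the same condition, 15.4% rose and 8.55% fell in XX, 39.4% and 6.52% in XY, and 9.55% and 19.1% in Tet3-/- cells, with medians of 0.13, 0.55 and -0.16. After scaling, the 12 members split into 8 higher and 1 lower in XX, 7 and 1 in XY, and 8 and 3 in Tet3-/- cells. Of the 11602 genes, 20.9% rose and 25.2% fell in XX on scaled values, 22.7% and 25.9% in XY, and 22.3% and 26.4% in Tet3-/- cells. Counts over all tested members follow for completeness. They hold the 10 that passed the filter through their EpiLC level, which favoured a rise, and Col20a1, which passed through its mESC level alone. Col4a5, Col4a6 and Col16a1 passed only through XY EpiLC and Col5a3 only through XX EpiLC, so that their direction in other lines was not fixed. In XX cells 15 members rose and 2 fell of 23 tested, where 31.3% of all genes tested were called, 19.2% higher and 12.2% lower. XY cells had 18 members higher and 1 lower, beside 41.1% and 9.36% of all genes (50.5% in all). Tet3-/- cells had 15 higher and 3 lower, beside 13.6% and 21.5% of all genes (35.1% in all). The median log2 fold change of the tested members was 1.12 for XX cells, 1.48 for XY and 0.96 for Tet3-/- cells, beside medians over all genes of 0.14, 0.54 and -0.13. After scaling, 15 rose and 2 fell in XX, where 24.5% of all genes rose and 25.9% fell (50.4% in all). In XY cells 15 rose and 1 fell after scaling, beside 26.4% and 25.0% of all genes (51.4% in all). Scaled Tet3-/- values had 17 higher and 4 lower, beside 25.2% and 27.2% of all genes (52.4% in all). Called higher in all 3 transitions were 12 members (Col4a1, Col4a2, Lama5, Lamb1, Lamb2, Lamb3, Col18a1, Col2a1, Col5a1, Col9a2, Col16a1 and Col22a1), and 6 of the 12 are among those 10. Only Lama1 was called lower in all 3. Over all genes tested, 10.9% were called higher and 5.93% lower in all 3 transitions. Summed over the 20 basement membrane members, the level went from 77.3 ± 18.4 to 211 ± 31.2 TPM (SD, n = 3 each) in XX, from 64.1 ± 26.0 to 304 ± 51.1 TPM (SD, n = 3 each) in XY and from 84.0 ± 14.2 (SD, n = 4) to 169 ± 56.6 TPM (SD, n = 3) in Tet3-/- cells. The 11 fibrillar members summed to 3.63 ± 0.759, 3.65 ± 0.932 and 6.20 ± 1.41 TPM in XX, XY and Tet3-/- mESC, and to 28.1 ± 4.33, 14.4 ± 3.14 and 30.3 ± 11.1 TPM in the EpiLC (SD, n = 3, with n = 4 for Tet3-/- mESC).

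**Figure D1:**
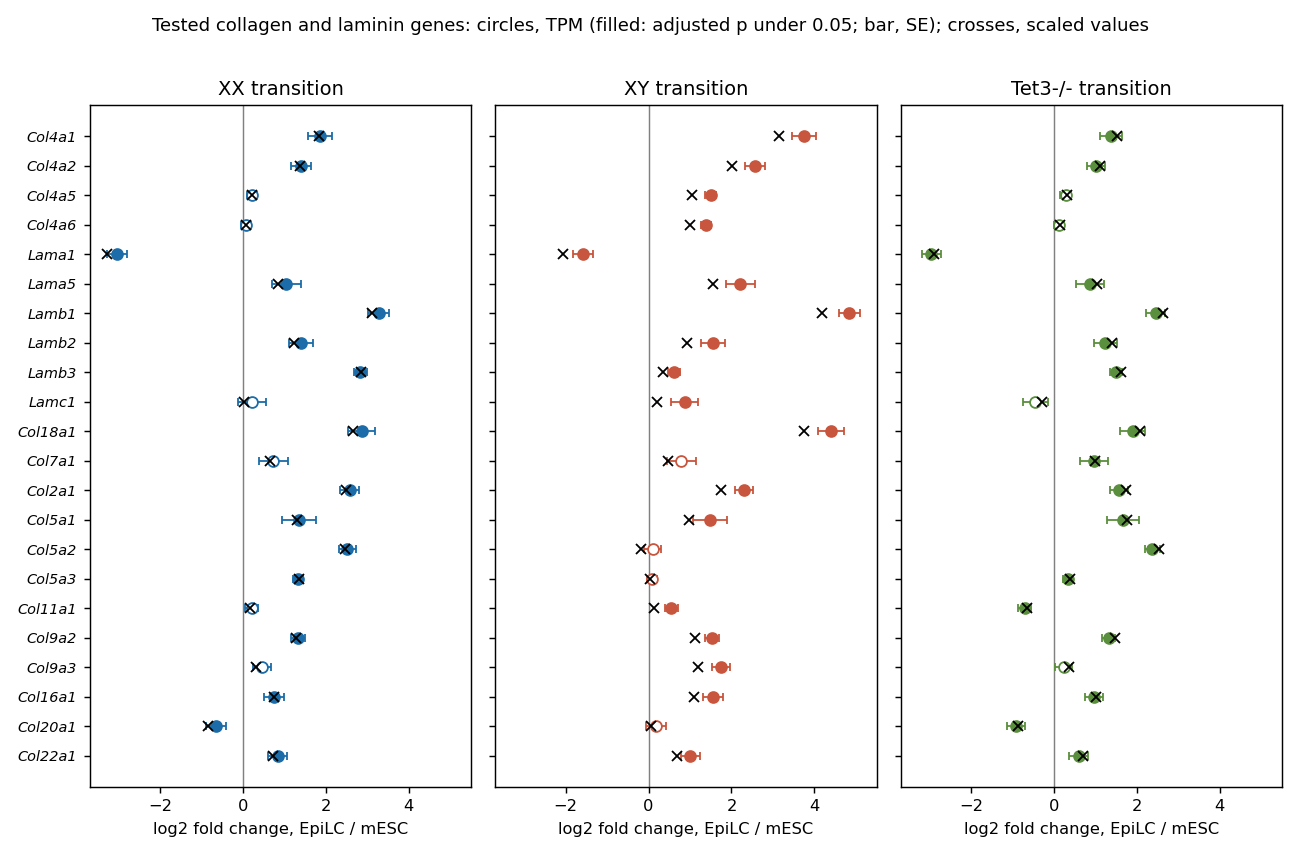
Log2 fold change from mESC to EpiLC (x axis, log2(TPM + 1) scale) of 22 of the 23 tested members (rows) in XX, XY and Tet3-/- cells. Circles are TPM values with their standard error, filled where limma's adjusted p was under 0.05, and crosses are scaled values; Lama1 lies left of 0 in all 3 panels (-3.04, -1.59 and -2.96).

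Among the laminin alpha chains the pair that made up nearly all of the level in mESC went in opposite directions. Lama1 (chromosome 17, 67697259 to 67822647, GRCm38), the alpha chain of the first laminin of the embryo, was at 9.74, 10.7 and 17.2 TPM in XX mESC, 8.68, 9.35 and 16.0 TPM in XY mESC, and 7.90, 11.1, 10.4 and 12.1 TPM in Tet3-/- mESC. The EpiLC values were 0.497, 0.644 and 0.682 TPM in XX, 2.34, 3.21 and 3.42 TPM in XY, and 0.615, 0.425 and 0.319 TPM in Tet3-/- cells. Every mESC library was above every EpiLC library, and XY EpiLC kept the highest level of the 3 EpiLC groups. Over all genes tested, the states did not overlap for 46.3% in XX, 57.0% in XY and 36.4% in Tet3-/- cells. The log2 fold change was -3.04 (SE 0.24, adjusted p = 1.62e-08) in XX, -1.59 (SE 0.24, adjusted p = 2.38e-05) in XY and -2.96 (SE 0.22, adjusted p = 6.53e-09) in Tet3-/- cells, and no alternative setting ended any of these calls. The fall in XX exceeded that in XY by -1.44 on the log2 scale (SE 0.34, adjusted p = 0.00655 for the difference of the transitions). Nearly all of the Lama1 level came from its full-length coding transcript, 97.4% over the libraries.

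Lama5 (chromosome 2, 180176373 to 180225859), which encodes the alpha 5 chain named above, rose. It was at 13.8, 14.2 and 23.0 TPM in XX mESC, 8.27, 7.64 and 18.5 TPM in XY mESC, and 13.6, 8.73, 14.2 and 19.7 TPM in Tet3-/- mESC. The EpiLC levels were 27.2, 39.6 and 40.3 TPM in XX, 41.2, 60.4 and 59.0 TPM in XY, and 24.1, 38.1 and 18.2 TPM in Tet3-/- cells. XX and XY groups did not overlap between the states, whereas the lowest Tet3-/- EpiLC library, mutant #4, lay below its highest mESC library. The log2 fold change was 2.21 (SE 0.35, adjusted p = 3.93e-05) in XY and 1.04 (SE 0.35, adjusted p = 0.0284) in XX cells. In Tet3-/- cells it was 0.87 (SE 0.33, adjusted p = 0.0450), a call lost without mutant #3 EpiLC (0.60, adjusted p = 0.172), without mutant #1 EpiLC or mutant #1, #2 or #3 mESC (adjusted p of 0.0707 to 0.142), and with the mutant number as a block (0.68, adjusted p = 0.119). The XX call was lost when XX mESC 1 or 2 or XX EpiLC 2 or 3 was left out (0.92, adjusted p = 0.0974, without XX mESC 1), and it held on scaled values (0.84, adjusted p = 0.00693). Lama1 made up 41.5% ± 0.996 (SD, n = 3) of the summed laminin alpha TPM in XX mESC and 1.64% ± 0.0913 (SD, n = 3) in XX EpiLC. Its share went from 49.9% ± 3.99 to 5.19% ± 0.213 (SD, n = 3 each) in XY and from 42.3% ± 8.81 (SD, n = 4) to 1.72% ± 0.677 (SD, n = 3) in Tet3-/- cells. Lama5 accounted for 95.3%, 92.7% and 95.1% of the alpha sum in XX, XY and Tet3-/- EpiLC. These shares compare genes within a library and so do not move with its scale. Lama2, Lama3 and Lama4, the alpha chains best known from muscle, epidermis and vessels, stayed below 1 TPM in every library, with 0.890 TPM for Lama3 in XX EpiLC the highest value.

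Promoters are printed for the members that rose in all 3 transitions at the highest levels, Lama5, Lamb1 and Col18a1, so that the bases before their start can be seen side by side. The sequences come from RefSeq (GRCm38.p6, a table that held 40 of the 55 members) and run 5′ to 3′ on the gene's strand up to the first base of any annotated exon. Capitals mark matches on either strand to the GC box (GGGCGG, or CCGCCC on the other strand) and the CCAAT box (CCAAT, or ATTGG on the other strand).
Lama5 (chr2:180225860-180226109, minus strand): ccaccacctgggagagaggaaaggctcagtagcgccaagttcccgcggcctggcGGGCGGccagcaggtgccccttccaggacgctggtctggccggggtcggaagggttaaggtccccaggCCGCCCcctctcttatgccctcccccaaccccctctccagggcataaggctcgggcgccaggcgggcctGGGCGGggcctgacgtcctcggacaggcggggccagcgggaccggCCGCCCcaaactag
Lamb1 (chr12:31265043-31265233, plus strand): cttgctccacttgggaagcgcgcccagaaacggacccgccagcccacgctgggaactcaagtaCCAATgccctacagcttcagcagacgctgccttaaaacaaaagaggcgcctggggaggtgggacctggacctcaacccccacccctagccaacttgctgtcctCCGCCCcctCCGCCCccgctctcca
Col18a1 (chr10:77166549-77166780, minus strand): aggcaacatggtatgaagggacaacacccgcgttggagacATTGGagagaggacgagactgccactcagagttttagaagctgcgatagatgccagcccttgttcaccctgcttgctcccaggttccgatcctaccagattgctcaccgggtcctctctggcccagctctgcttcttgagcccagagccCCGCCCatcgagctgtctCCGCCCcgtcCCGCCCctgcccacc
Lama5 held 4 GC boxes in 250 bases, Lamb1 held 2 GC boxes and 1 CCAAT box in 191 bases, and Col18a1 held 3 GC boxes and 1 CCAAT box in 232 bases. A GC box occurred in 32.7%, 23.1% and 30.1% of all 32851 promoter windows cut to those lengths, and a CCAAT box in 33.8%, 26.9% and 32.4%. The TATA box (TATAAA) and the AP-1 site (TGANTCA) were searched too and had no match in these windows. Matches to different motifs did not overlap. GC content was 72.4%, 63.9% and 60.8%, where the median of the 250 bases before the start was 52.4% over all windows. A match is a description of letters and says nothing of binding.

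The laminin beta chains rose in every line, Lamb1 the most on the log2(TPM + 1) scale. That scale shrinks the rise of Lamb3, which was low in mESC. The mean of Lamb3 went from 0.137 to 7.12 TPM in XX and from 0.0882 to 2.08 TPM in Tet3-/- cells, larger ratios than those of Lamb1. Lamb1 (chromosome 12, 31265234 to 31329644), the beta chain shared by the common embryonic laminins, was at 2.42, 1.80 and 3.74 TPM in XX mESC, 0.741, 1.32 and 1.37 TPM in XY mESC, and 4.30, 3.62, 3.19 and 6.04 TPM in Tet3-/- mESC. It reached 28.1, 35.7 and 37.1 TPM in XX EpiLC, 48.9, 67.3 and 65.7 TPM in XY EpiLC, and 28.1, 33.1 and 21.9 TPM in Tet3-/- EpiLC. No EpiLC library overlapped any mESC library, and the 3 XY EpiLC libraries were above all others. The rise was 3.27 (SE 0.25, adjusted p = 1.14e-08) in XX, 4.84 (SE 0.25, adjusted p = 5.08e-11) in XY and 2.45 (SE 0.23, adjusted p = 1.25e-07) in Tet3-/- cells. It was smaller in XX than in XY by -1.58 (SE 0.35, adjusted p = 0.00479), and by -1.07 on scaled values (adjusted p = 0.0316). The level in XX EpiLC was below that in XY EpiLC on TPM (-0.83, SE 0.25, adjusted p = 0.0140), but scaled values ended this call (-0.10, adjusted p = 0.790), as did leaving out XX EpiLC 1, XY EpiLC 2 or XY EpiLC 3 (adjusted p of 0.0576 to 0.0686).

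Lamb2 (chromosome 9, 108479736 to 108490530), the beta chain of laminins at synapses and in kidney, was at 5.45, 8.67 and 7.40 TPM in XX mESC, 5.14, 5.01 and 8.80 TPM in XY mESC, and 2.78, 7.66, 6.18 and 4.19 TPM in Tet3-/- mESC. Its EpiLC values were 18.0, 22.6 and 20.4 TPM in XX, 15.8, 22.7 and 21.9 TPM in XY, and 14.9, 15.2 and 9.52 TPM in Tet3-/- cells. The states did not overlap in any line. It rose by 1.40 (adjusted p = 0.00112), 1.55 (adjusted p = 2.68e-04) and 1.24 (adjusted p = 0.00153) on the log2 scale in XX, XY and Tet3-/- cells. The gene level of Lamb2 is uncertain, since the full-length transcript held 39.6% of it and the rest lay mainly in short annotated fragments that span 646 bases (26.1%) and 304 bases (16.9%) of the gene.

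Lamb3 (chromosome 1, 193207699 to 193343878), the beta chain of the laminin of epidermal hemidesmosomes, set the lines apart. It was at most 0.223 TPM in any mESC library. XX EpiLC had 5.91, 7.07 and 8.37 TPM, XY EpiLC 0.716, 0.891 and 0.711 TPM, and Tet3-/- EpiLC 1.95, 2.57 and 1.70 TPM. The 3 EpiLC groups did not overlap, with XX highest, Tet3-/- between and XY lowest. XX and XY EpiLC did not overlap for 75.7% of all genes tested, and Tet3-/- and XX EpiLC for 15.8%. Lamb3 passed the filter on low values only through XX and Tet3-/- EpiLC. The filter thus fixed the direction of its rise in XX and Tet3-/- cells and favoured a larger rise in XX than in XY. It rose by 2.83 (SE 0.15, adjusted p = 9.31e-11) in XX, 0.61 (SE 0.15, adjusted p = 0.00215) in XY and 1.49 (SE 0.14, adjusted p = 7.50e-08) in Tet3-/- cells, and the rise in XX exceeded that in XY by 2.22 (SE 0.21, adjusted p = 1.48e-06). Within the beta chains of EpiLC, Lamb1, Lamb2 and Lamb3 made up 55.0%, 33.4% and 11.6% of the summed TPM in XX, 74.4%, 24.7% and 0.960% in XY, and 64.6%, 30.6% and 4.84% in Tet3-/- cells.

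Among the gamma chains, Lamc1 (chromosome 1, 153218922 to 153332786), the gamma chain of most laminins, was at 14.3, 27.3 and 24.0 TPM in XX mESC, 21.9, 15.2 and 39.8 TPM in XY mESC, and 21.4, 24.9, 27.1 and 29.3 TPM in Tet3-/- mESC. Its EpiLC values were 21.6, 26.2 and 26.9 TPM in XX, 36.1, 48.4 and 49.3 TPM in XY, and 16.6, 29.1 and 12.7 TPM in Tet3-/- cells. The states overlapped in every line. Its log2 fold change was 0.22 (SE 0.33, adjusted p = 0.672) in XX and -0.45 (SE 0.31, adjusted p = 0.286) in Tet3-/- cells. In XY cells the value was 0.87 (SE 0.33, adjusted p = 0.0351), a call that scaled values ended (0.21, adjusted p = 0.111) and that was lost without XY mESC 1 or 2 or XY EpiLC 2 or 3 (0.56, adjusted p = 0.205, without XY mESC 2), while scaled values made the Tet3-/- difference a call (-0.29, adjusted p = 0.0241). Lamc3 was at most 0.115 TPM in any library.

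**Figure D2:**
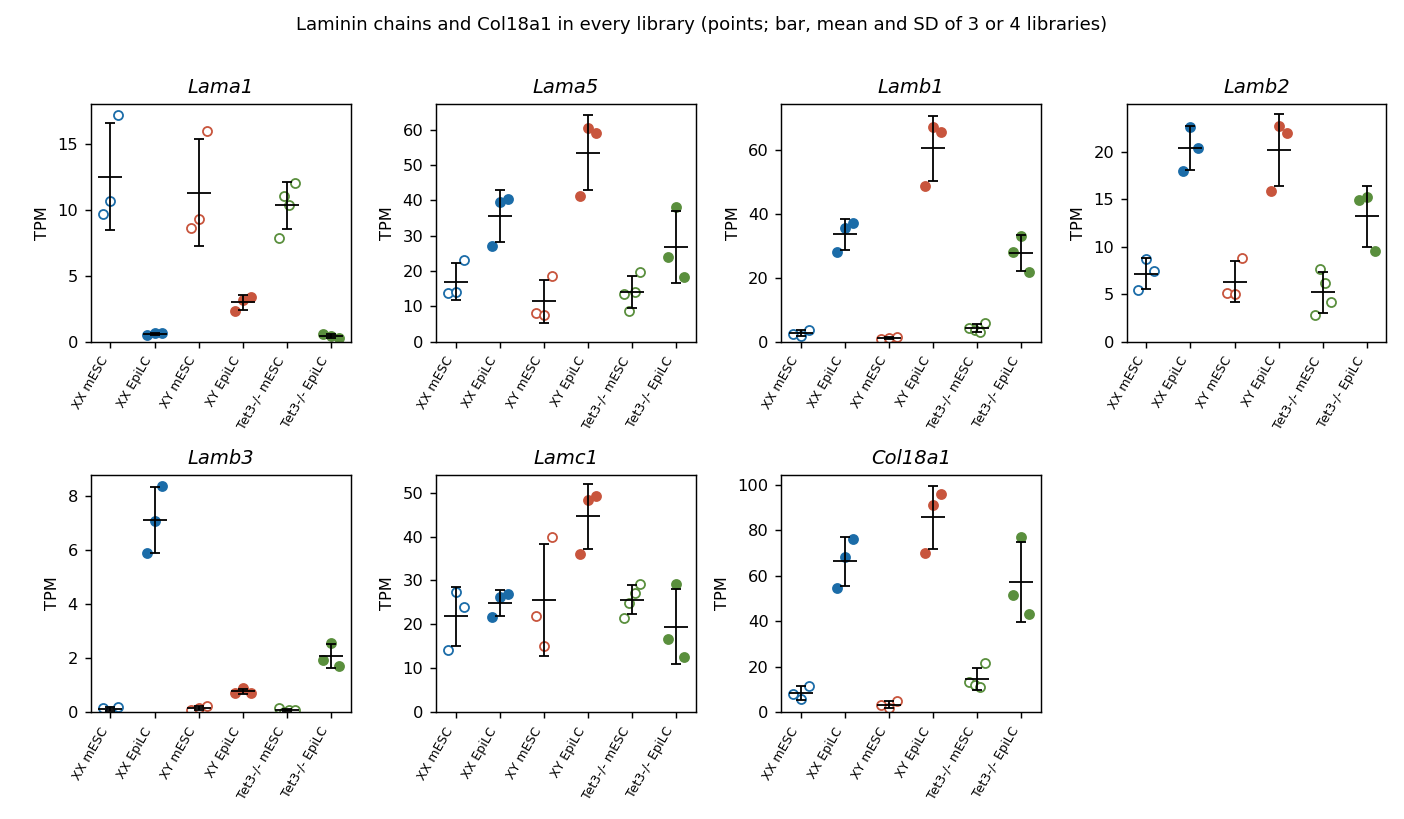
TPM (y axis, linear) of 6 laminin chains and Col18a1 in every library of the 6 groups (open points mESC, filled points EpiLC), with the mean and SD of each group. Lama1 is near 0 in the XX and Tet3-/- EpiLC, and Lamb3 is highest in XX EpiLC (5.91 to 8.37 TPM).

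Col18a1 (chromosome 10, 77052178 to 77166548), the core protein of a heparan sulfate proteoglycan of basement membranes and the source of endostatin, had the highest level of any collagen gene in EpiLC. It was at 8.02, 5.73 and 11.8 TPM in XX mESC, 3.29, 1.72 and 4.81 TPM in XY mESC, and 13.5, 12.2, 11.3 and 21.6 TPM in Tet3-/- mESC. Its EpiLC levels were 54.7, 68.3 and 76.2 TPM in XX, 69.9, 91.3 and 95.8 TPM in XY, and 51.6, 77.2 and 43.4 TPM in Tet3-/- cells. States did not overlap in any line, and the 3 EpiLC groups overlapped one another. It rose by 2.86 (SE 0.32, adjusted p = 1.13e-06) in XX, 4.40 (SE 0.32, adjusted p = 2.86e-09) in XY and 1.90 (SE 0.30, adjusted p = 4.67e-05) in Tet3-/- cells. XX mESC already lay above XY mESC, by 1.17 (SE 0.32, adjusted p = 0.0175; lost without XX mESC 3, at 0.93, or without XY mESC 2, at 0.88), and the rise was smaller in XX than in XY by -1.54 (SE 0.45, adjusted p = 0.0254). This last call was lost when XX mESC 3, XY mESC 2, XX EpiLC 1, XY EpiLC 2 or XY EpiLC 3 was left out (adjusted p of 0.0622 to 0.0832). A single transcript that begins at the start whose promoter is printed above carried 92.2% of the level. Col7a1, the collagen of anchoring fibrils, was at most 0.575 TPM in mESC and reached 5.58 TPM in Tet3-/- EpiLC mutant #3, against 0.437 and 1.14 TPM in mutants #1 and #4. Only EpiLC libraries reached 1 TPM of Col7a1, so that the filter on low values favoured a rise. A coding transcript that spans 31290 bases held 45.3% of its level. Its call in Tet3-/- cells (0.96, adjusted p = 0.0302) was lost without mutant #3 EpiLC (0.32, adjusted p = 0.191), without mutant #2 or #3 mESC (adjusted p = 0.0576 and 0.0783) and with the mutant number as a block (0.94, adjusted p = 0.0688).

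The type IV collagen genes lie in the genome as head-to-head pairs that are transcribed in opposite directions. Col4a1 (chromosome 8, 11198423 to 11312826, minus strand) and Col4a2 (chromosome 8, 11312805 to 11449287, plus strand) encode the chains of the type IV collagen found in nearly all basement membranes. Their annotated first bases overlap by 22, Col4a3 and Col4a4 on chromosome 1 are 71 bases apart, and Col4a5 and Col4a6 on chromosome X are 1308 bases apart. The shared start of the first pair is shown because both genes rose in every line, with the overlap in capitals (plus strand, GRCm38).
Col4a1 and Col4a2 start (chr8:11312801-11312830): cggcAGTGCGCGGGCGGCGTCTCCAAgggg
Col4a1 was at 0.292, 0.447 and 0.769 TPM in XX mESC, 0.435, 0.208 and 0.422 TPM in XY mESC, and 1.46, 1.28, 1.08 and 2.38 TPM in Tet3-/- mESC. EpiLC had 4.06, 4.05 and 5.24 TPM in XX, 14.9, 18.5 and 18.4 TPM in XY, and 3.81, 11.1 and 3.65 TPM in Tet3-/- cells. XY EpiLC were above all other libraries, and mutant #3 was the highest of the Tet3-/- EpiLC. The rise was 1.86 (SE 0.29, adjusted p = 5.04e-05) in XX, 3.75 (SE 0.29, adjusted p = 5.82e-09) in XY and 1.37 (SE 0.27, adjusted p = 4.76e-04) in Tet3-/- cells. Without mutant #3 EpiLC the Tet3-/- value was 0.92 (adjusted p = 0.00107). The rise was smaller in XX than in XY by -1.89 (SE 0.41, adjusted p = 0.00346).

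Col4a2 followed its neighbour at a lower level. Its values were 0.220, 0.224 and 0.313 TPM in XX mESC, 0.190, 0.134 and 0.335 TPM in XY mESC, and 0.566, 0.531, 0.507 and 0.839 TPM in Tet3-/- mESC. In EpiLC they were 2.12, 2.29 and 2.48 TPM in XX, 5.19, 7.40 and 6.18 TPM in XY, and 1.52, 4.68 and 1.39 TPM in Tet3-/- cells. It rose by 1.40 (adjusted p = 1.58e-04), 2.56 (adjusted p = 7.10e-08) and 1.02 (adjusted p = 0.00140) in XX, XY and Tet3-/- cells, and the last value was 0.61 (adjusted p = 0.00222) without mutant #3 EpiLC. Only EpiLC libraries reached 1 TPM of Col4a2, so that the filter on low values favoured a rise. The ratio of Col4a1 to Col4a2 TPM, which are per length and come from the same library, was 1.93 ± 0.176 in XX EpiLC, 2.78 ± 0.246 in XY EpiLC and 2.51 ± 0.124 in Tet3-/- EpiLC (SD, n = 3 each).

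The X-linked pair Col4a5 and Col4a6, whose chains form a type IV collagen of specialised basement membranes, rose in XY cells. Col4a5 (141475385 to 141689234, plus strand) reached 1.72, 2.70 and 2.23 TPM in the XY EpiLC libraries, where XX EpiLC stayed within 0.238 TPM and Tet3-/- EpiLC within 0.549 TPM. Col4a6 (141165403 to 141474076, minus strand) reached 1.26, 1.97 and 1.92 TPM there, and no other library exceeded 0.115 TPM. The XY groups overlapped neither their mESC nor the EpiLC of the other lines. In XY cells Col4a5 rose by 1.50 (SE 0.13, adjusted p = 4.20e-08) and Col4a6 by 1.39 (SE 0.12, adjusted p = 2.07e-08). In XX cells the values were 0.22 (adjusted p = 0.249) and 0.07 (adjusted p = 0.698). Tet3-/- cells had 0.28 (adjusted p = 0.0936) and 0.11 (adjusted p = 0.476), and only Col4a5 was called there on scaled values (0.32, adjusted p = 0.00763). The difference of the XX and XY transitions was -1.29 (SE 0.19, adjusted p = 1.46e-04) for Col4a5 and -1.32 (SE 0.17, adjusted p = 3.08e-05) for Col4a6. Both genes passed the filter on low values only through XY EpiLC, so that the direction of these differences was fixed by the filter. The endoderm markers given above also went up from mESC to EpiLC in XY cells, where Foxa2 was at 3.64 to 3.80 TPM in EpiLC, and their part in the type IV collagen values was not tested. Col4a3 and Col4a4, the pair of the adult glomerulus, were below 1 TPM in every library. The bases before the starts of the X-linked pair are printed because these 2 neighbours moved together, with GC and CCAAT boxes in capitals as above.
Col4a5 (chrX:141475169-141475384, plus strand): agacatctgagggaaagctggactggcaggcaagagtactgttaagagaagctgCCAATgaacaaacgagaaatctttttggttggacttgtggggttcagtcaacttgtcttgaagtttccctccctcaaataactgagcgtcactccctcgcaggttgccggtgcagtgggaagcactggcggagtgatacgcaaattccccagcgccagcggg
Col4a6 (chrX:141474077-141474326, minus strand): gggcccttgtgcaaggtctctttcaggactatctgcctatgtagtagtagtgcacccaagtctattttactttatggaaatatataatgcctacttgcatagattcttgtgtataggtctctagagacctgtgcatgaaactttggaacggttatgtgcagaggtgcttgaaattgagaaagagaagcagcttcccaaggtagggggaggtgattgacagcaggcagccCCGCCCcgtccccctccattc
Col4a5 held 1 CCAAT box and no GC box in 216 bases, and Col4a6 held 1 GC box and no CCAAT box in 250 bases. Of all windows cut to these lengths, 30.5% held a CCAAT box at 216 bases and 32.7% held a GC box at 250 bases. GC content was 52.3% and 47.6%.

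**Figure D3:**
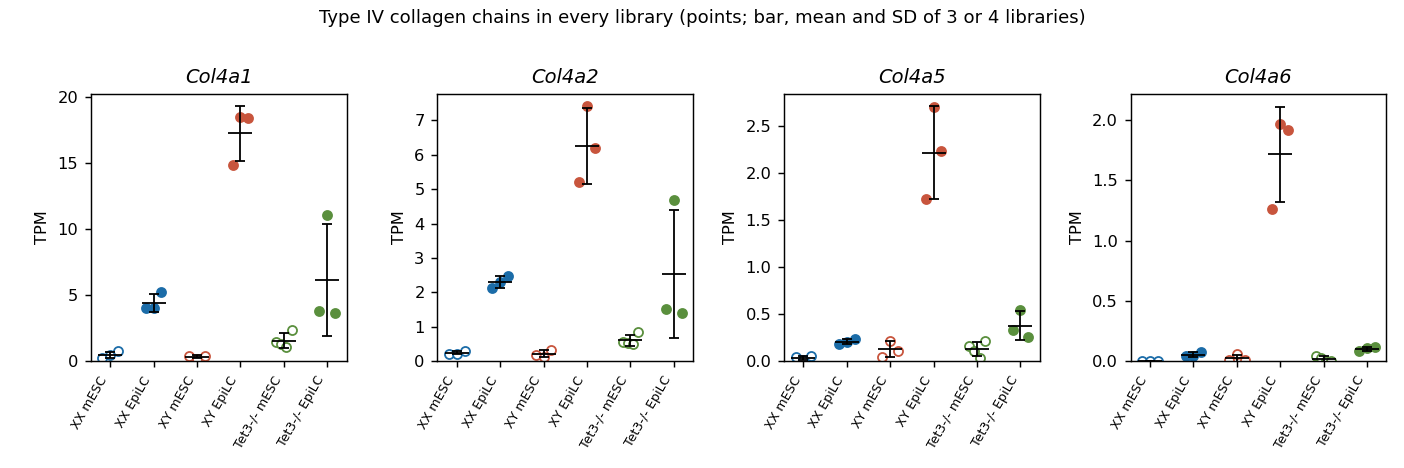
TPM (y axis, linear, a scale for each gene) of Col4a1, Col4a2, Col4a5 and Col4a6 in every library of the 6 groups (open points mESC, filled points EpiLC), with the mean and SD. XY EpiLC are highest for all 4 genes, and 1 Tet3-/- EpiLC library, mutant #3, stands above the others of its group for Col4a1 (11.1 TPM) and Col4a2 (4.68 TPM).

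Of the 11 fibrillar collagens 5 were tested, and the abundant fibre genes of connective tissue, Col1a1, Col1a2 and Col3a1, were not among them, being at most 0.743, 0.874 and 0.247 TPM. Col2a1 (chromosome 15, 97975602 to 98004695), the main collagen of cartilage, was at 0.780, 1.51 and 1.15 TPM in XX mESC, 0.0832, 0.330 and 0.314 TPM in XY mESC, and 1.12, 1.18, 1.15 and 1.54 TPM in Tet3-/- mESC. The levels in EpiLC were 9.40, 12.5 and 13.3 TPM in XX, 3.60, 6.34 and 5.65 TPM in XY, and 4.44, 7.99 and 5.08 TPM in Tet3-/- cells. XX EpiLC lay above every other library. It rose by 2.57 (SE 0.22, adjusted p = 5.17e-08) in XX, 2.30 (SE 0.22, adjusted p = 1.13e-07) in XY and 1.57 (SE 0.21, adjusted p = 6.94e-06) in Tet3-/- cells. XX exceeded XY in both states, by 0.78 (SE 0.22, adjusted p = 0.0228) in mESC and 1.06 (SE 0.22, adjusted p = 0.00145) in EpiLC, the first being lost without XX mESC 2, XX mESC 3 or XY mESC 1 (adjusted p of 0.0592 to 0.104).

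Col5a2 (chromosome 1, 45374321 to 45503282), a chain of the type V collagen that nucleates fibrils, separated the LF2 cells from the E14 cells. It was at 0.604 to 0.889 TPM in XX mESC, 0.603 to 1.17 TPM in XY mESC and 1.59 to 2.79 TPM in Tet3-/- mESC. Its EpiLC range was 7.83 to 10.1 TPM in XX (median 9.30), 0.813 to 1.04 TPM in XY (median 0.889) and 11.6 to 18.2 TPM in Tet3-/- cells (median 17.0). All EpiLC libraries of the LF2 line lay above all of the XY line. At 1 TPM or more were 1 XY mESC and 1 XY EpiLC library, so that Col5a2 passed the filter through LF2 cells. That favoured a higher value in LF2 than in E14 cells. It rose by 2.52 (SE 0.20, adjusted p = 1.41e-08) in XX and 2.37 (SE 0.18, adjusted p = 8.69e-09) in Tet3-/- cells, and the XY value was 0.10 (SE 0.20, adjusted p = 0.701). The difference of the XX and XY transitions was 2.42 (SE 0.28, adjusted p = 1.12e-05).

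Col5a3 (chromosome 9, 20770050 to 20815067), a further chain of type V collagen, was at most 0.173 TPM in mESC. Its mean in EpiLC was 1.81 ± 0.321 TPM in XX, 0.0655 ± 0.0147 TPM in XY and 0.334 ± 0.0620 TPM in Tet3-/- cells (SD, n = 3 each), and these groups did not overlap. It rose in XX cells by 1.33 (SE 0.12, adjusted p = 5.51e-08), and the XY value was 0.08 (adjusted p = 0.596). The Tet3-/- value was 0.33 (adjusted p = 0.0218), a call lost with the mutant number as a block (0.31, adjusted p = 0.130) and without mutant #2 mESC (adjusted p = 0.0532) or mutant #4 EpiLC (adjusted p = 0.0503). The difference of the XX and XY transitions was 1.26 (SE 0.16, adjusted p = 4.27e-05). Col5a3 passed the filter on low values only through XX EpiLC, at 1.47 to 2.11 TPM with no other library above 0.400 TPM, so that the direction of its differences from XX EpiLC was fixed by the filter.

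Col5a1 (chromosome 2, 27886425 to 28039514), the chain common to most type V collagen, was at 0.465 to 0.687 TPM in XX mESC, 0.530 to 1.29 TPM in XY mESC and 0.423 to 0.886 TPM in Tet3-/- mESC. EpiLC had 2.52 to 3.33 TPM in XX (median 3.04), 3.24 to 4.77 TPM in XY (median 4.61), and 2.11, 13.3 and 1.63 TPM in mutants #1, #3 and #4. It was called higher in XX (1.36, adjusted p = 0.0153), XY (1.48, adjusted p = 0.00573) and Tet3-/- cells (1.66, adjusted p = 0.00191), and the last value was 0.89 (adjusted p = 9.05e-04) without mutant #3 EpiLC. Col5a1 reached 1 TPM in 1 mESC library and 9 EpiLC libraries, so that the filter on low values favoured a rise. The XX call was lost without XX EpiLC 3 (1.29, adjusted p = 0.0530). Col11a1, a minor chain of cartilage fibrils, was called lower in Tet3-/- cells. It fell there from 1.20 ± 0.454 (SD, n = 4) to 0.322 ± 0.0547 TPM (SD, n = 3), by 0.71 on the log2 scale (adjusted p = 0.00111). XY cells had 0.928 ± 0.191 and 1.83 ± 0.298 TPM (SD, n = 3 each), a call on TPM (0.55, adjusted p = 0.00901) that scaled values ended (0.14, adjusted p = 0.462). In XX cells it was at 0.223 and 0.413 TPM, with a log2 fold change of 0.21 (adjusted p = 0.379).

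**Figure D4:**
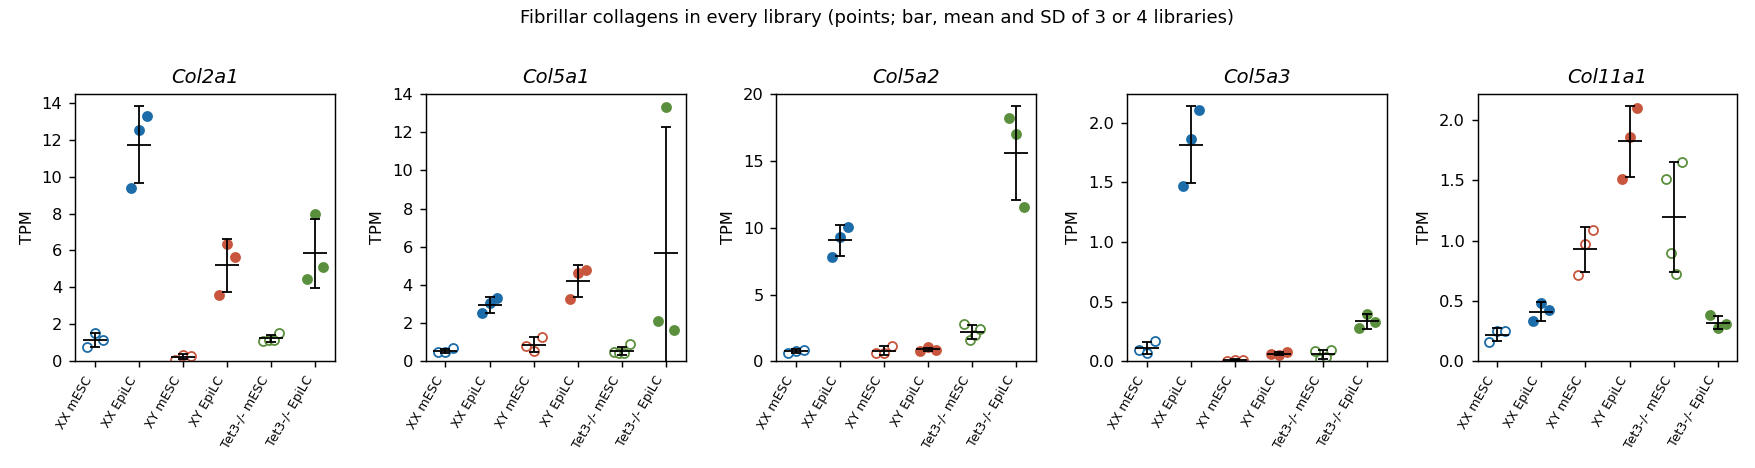
TPM (y axis, linear, a scale for each gene) of the 5 tested fibrillar collagens in every library of the 6 groups (open points mESC, filled points EpiLC), with the mean and SD. Col5a2 is high in XX and Tet3-/- EpiLC and near 1 TPM in XY EpiLC, and mutant #3 alone gives Col5a1 its high Tet3-/- mean (13.3 TPM).

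The other tested collagens are of the kind that attaches to fibrils and interrupts its own helix. Of these, Col9a2, Col16a1 and Col22a1 had fewer than 3 mESC libraries at 1 TPM, so that the filter on low values favoured a rise. Col9a3 (chromosome 2), a chain of cartilage type IX collagen, was at 0.809 to 1.16 TPM in XY mESC and 4.36, 5.91 and 6.22 TPM in XY EpiLC, and no other library exceeded 2.28 TPM. It rose in XY cells by 1.75 (SE 0.21, adjusted p = 2.21e-06), where XX cells had 0.46 (adjusted p = 0.115) and Tet3-/- cells 0.23 (adjusted p = 0.411). The difference of the XX and XY transitions (-1.28, SE 0.30, adjusted p = 0.00684) was not called on scaled values (-0.88, adjusted p = 0.0730). Col9a2, its partner chain, rose by 1.33 in XX, 1.53 in XY and 1.32 in Tet3-/- cells, to EpiLC means of 2.34, 2.08 and 1.86 TPM. A transcript annotated as non-coding held 31.9%, 3.94% and 36.2% of the Col9a2 level in XX, XY and Tet3-/- EpiLC. The coding transcript had means of 1.60, 1.97 and 1.18 TPM there, so that the order of the groups depends on which transcripts are counted. Col16a1 rose by 0.75, 1.56 and 0.96, to 0.777, 3.14 and 1.23 TPM, and its XX call was lost without XX mESC 1, XX EpiLC 2 or XX EpiLC 3 (adjusted p of 0.0545 to 0.0897). Without mutant #3 EpiLC, where it was at 2.42 TPM, the Tet3-/- value of Col16a1 was 0.61. Col22a1, a collagen of tissue junctions, rose by 0.84, 1.01 and 0.59, and its call in Tet3-/- cells was lost with the mutant number as a block (0.43, adjusted p = 0.175) and without mutant #2 or #3 mESC or mutant #1 or #3 EpiLC (adjusted p of 0.0987 to 0.147). Its XX call was lost without XX mESC 2 (0.61, adjusted p = 0.0578). The gene levels of Col16a1 and Col22a1 are uncertain. Coding transcripts that span 51438 bases of Col16a1 and 238433 bases of Col22a1 held 13.3% and 38.8% of them. Col20a1, which passed the filter through XX and Tet3-/- mESC alone, was the only one of the 5 called lower, in XX (-0.66, adjusted p = 0.0387) and Tet3-/- cells (-0.92, adjusted p = 0.00279). The XX call of Col20a1 was lost when any of 5 of the 6 XX libraries was left out, all but XX mESC 2 (adjusted p of 0.0648 to 0.233). It was at 1.30, 0.339 and 2.05 TPM in XX mESC and 1.88, 0.761, 0.824 and 1.76 TPM in Tet3-/- mESC, high in those mESC libraries where the endoderm markers were high. In EpiLC this was not so. Mutant #3, with the highest marker sum of all (16.6 TPM), had 0.161 TPM of Col20a1, and XY EpiLC had 0.162 to 0.278 TPM. The part of the endoderm markers in its values was not tested. The remaining 32 members were not tested. Of these, 28 were below 1 TPM in every library, among them Col15a1 of the basement membrane zone and the other 3 laminin alpha chains. The other 4 reached 1 TPM in fewer than 3 libraries, Col26a1 with at most 1.56 TPM, Col17a1 with 1.47 TPM, Col27a1 with 1.12 TPM and Col6a1 with 1.00 TPM.

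Whether loss of Tet3 changed these genes was asked by comparing Tet3-/- with XX cells of the same line in each state. These comparisons share the XX libraries with those above. In mESC 2 of the 23 tested members were called higher and none lower, where 0.601% of all genes tested were called, 0.494% higher and 0.107% lower. Col5a2 was at 1.59 to 2.79 TPM in the libraries labelled Tet3-/- and at 0.604 to 0.889 TPM in XX mESC, a difference of 0.85 (SE 0.18, adjusted p = 0.0424). Col11a1 was at 0.721 to 1.65 TPM against 0.164 to 0.255 TPM, a difference of 0.82 (SE 0.15, adjusted p = 0.0192). Neither was called when only these 2 groups entered the fit (adjusted p = 0.274 for each), or with the replicate number as a block (0.82, adjusted p = 0.153, for Col5a2 and 0.72, adjusted p = 0.190, for Col11a1). Each was also lost when XX mESC 1, XX mESC 3, or Tet3-/- mESC mutant #1 or #4 was left out, and Col5a2 without mutant #3 as well (adjusted p of 0.0536 to 0.250). Of the 13 basement membrane members none was called in mESC by limma, with 3 at an unadjusted p under 0.05. On scaled values Col4a1 joined the calls (0.66, adjusted p = 0.0313), where 1.77% of all genes were called higher and 1.42% lower (3.19% in all).

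In EpiLC, 2 members were called lower and none higher, against 1.08% of all genes tested, 0.955% lower and 0.120% higher. Lamb3, with the values given above, was lower in Tet3-/- EpiLC by 1.40 on the log2 scale (-1.40, SE 0.15, adjusted p = 3.41e-05), with a mean of 2.08 ± 0.449 against 7.12 ± 1.23 TPM (SD, n = 3 each). Col5a3 had a difference of -1.07 (SE 0.12, adjusted p = 4.48e-05), but it was tested only because XX EpiLC reached 1 TPM, so that its direction here was fixed by the filter. When only these 2 groups were fitted, neither passed (adjusted p = 0.118 for Lamb3 and 0.0596 for Col5a3). Leaving out mutant #3 left both called, at -1.51 and -1.11. Scaled values added Col2a1 (-0.83, adjusted p = 0.00136) and Col5a2 (0.82, adjusted p = 0.0110), whose TPM values were -0.92 (adjusted p = 0.0534) and 0.71 (adjusted p = 0.109). That made 3 members lower and 1 higher on scaled values, beside 2.96% and 2.50% of all genes (5.46% in all). Without mutant #3 Col2a1 was called on TPM too (-1.13, adjusted p = 0.00915). The same 2 members, Lamb3 and Col5a3, had a smaller rise in Tet3-/- than in XX cells, against 0.174% of all genes (0.661% on scaled values, 0.414% lower and 0.247% higher, with the same 2 members). The differences of the transitions were -1.34 (SE 0.20, adjusted p = 0.00592) for Lamb3 and -1.00 (SE 0.16, adjusted p = 0.00871) for Col5a3. Both were lost with a pseudocount of 0.1 (adjusted p = 0.358 and 0.307) and with the mutant number, and the replicate number of XX cells, as a block (adjusted p = 0.107 and 0.164). Lama1, Lama5, Lamb1, Lamc1, Col18a1, Col4a1 and Col4a2 were not called between Tet3-/- and XX cells in either state on TPM, which does not show that they are alike. Their log2 differences lay between -0.44 and 0.75, with standard errors of 0.22 to 0.35.

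XX and XY cells were then compared within each state, a comparison in which line and sex cannot be told apart. In mESC 4 members were called against 14.2% of all genes tested (6.43% higher and 7.73% lower in XX), a share near that background. They were Col18a1 and Col2a1, given above, Col20a1 (0.96, SE 0.24, adjusted p = 0.00954) and, lower in XX, Col11a1 (-0.65, SE 0.16, adjusted p = 0.0106). Without XX mESC 3 only Col11a1 remained called. Scaled values gave 6 higher and 1 lower, beside 17.7% and 13.6% of all genes (31.3% in all). In EpiLC 14 members were called, 5 higher and 9 lower in XX, against 47.2% of all genes. Among the 5 that were higher in XX, where 5.23% of all genes were, are Lamb3, Col2a1, Col5a2 and Col5a3. Lower in XX, where 42.0% of all genes were, are Col4a1, Col4a2, Col4a5, Col4a6, Lama1, Lamb1, Col11a1, Col9a3 and Col16a1. Scaled values gave 6 higher and 7 lower, beside 17.2% and 16.6% of all genes (33.8% in all). They dropped Lamb1 and Col9a3 (-1.17, adjusted p = 4.59e-04, on TPM and -0.59, adjusted p = 0.0726, scaled) and added Lamb2 as higher in XX (0.72, adjusted p = 0.0242). Of the members lower in XX, 3 (Col4a5, Col4a6 and Col16a1) were tested only because XY EpiLC reached 1 TPM, and Col5a3 only because XX EpiLC did, so that the filter fixed their direction. Lamb3 was tested only through XX and Tet3-/- EpiLC, and Col5a2 through cells of the LF2 line, which favoured a higher value in XX than in XY. Col4a1 and Col4a2 were lower in XX EpiLC on both scales, by -1.75 and -1.13 on TPM and by -1.07 and -0.52 on scaled values. The values of Col4a5 and Col4a6 were -1.40 and -1.36 on TPM and -0.96 and -0.97 on scaled values. Of the 5 fibrillar genes, 3 were higher in XX and 1 lower. The transitions themselves differed between XX and XY for 11 members, against 16.0% of all genes (3.61% higher and 12.4% lower in XX). The rise was larger in XX for Lamb3, Col5a2 and Col5a3, and 8 members had a lower log2 change in XX (Col4a1, Col4a2, Col4a5, Col4a6, Lama1, Lamb1, Col18a1 and Col9a3), with the same limits for Col4a5, Col4a6, Col5a2, Col5a3 and Lamb3. The Col4a2 difference (-1.17, SE 0.34, adjusted p = 0.0239) was lost with the replicate number as a block (-1.17, adjusted p = 0.0534), with TPM rescaled over nuclear protein-coding genes (-1.00, adjusted p = 0.0798), with no filter or one of 5 TPM, with a pseudocount of 0.1 (adjusted p = 0.0565) and without XX mESC 3, XY mESC 1, XY mESC 2, XX EpiLC 1, XY EpiLC 2 or XY EpiLC 3 (adjusted p of up to 0.0690). Scaled values gave 4 higher and 7 lower, beside 10.9% and 12.8% of all genes (23.7% in all), with Col2a1 added (0.74, adjusted p = 0.00839) and Col9a3 dropped. The sign for Col2a1 depends on the added 1. Its mean went from 1.15 to 11.8 TPM in XX and from 0.242 to 5.20 TPM in XY, a larger ratio in XY. With a pseudocount of 0.1 its TPM difference was negative.

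Genes that act with collagens and laminins were counted from lists of matrix partners, collagen biosynthesis and receptors. Their counts on TPM are to be read against the 19.2% of all genes that rose and 12.2% that fell in XX, 41.1% and 9.36% in XY, and 13.6% and 21.5% in Tet3-/- cells, and their medians against 0.14, 0.54 and -0.13. For counts on scaled values the shares are 24.5% and 25.9% in XX, 26.4% and 25.0% in XY, and 25.2% and 27.2% in Tet3-/- cells. Of 9 tested matrix partners, 4 rose and 2 fell in XX, 5 rose and 2 fell in XY, and 4 rose and 2 fell in Tet3-/- cells. Scaled values changed the XY split to 4 higher and 4 lower and the Tet3-/- split to 5 higher and 3 lower. Their median log2 fold change on TPM was 0.13 in XX, near that of all genes, 0.97 in XY and 0.41 in Tet3-/- cells. Nid1, the nidogen that bridges laminin and type IV collagen, fell by 3.30, 3.51 and 3.79 on the log2 scale in XX, XY and Tet3-/- cells, from means of 40.3, 30.4 and 36.2 TPM in mESC to 3.13, 1.48 and 1.73 TPM in EpiLC. Hspg2, which encodes perlecan, rose by 1.96, 2.00 and 1.56. Sparc, a collagen-binding matrix protein, rose by 2.22 in XX and 2.24 in Tet3-/- cells, and its XY value of 0.97 was not called on scaled values (0.31, adjusted p = 0.120). Among 19 tested genes of collagen biosynthesis, 8 rose and 2 fell in XX, 10 rose and 2 fell in XY, and 6 rose and 4 fell in Tet3-/- cells, with medians of 0.59, 0.77 and 0.50. Scaled values gave 9 higher and 4 lower in XX, 8 higher and 6 lower in XY, and 9 higher and 4 lower in Tet3-/- cells. Serpinh1, the collagen chaperone of the endoplasmic reticulum, rose by 2.54, 2.49 and 2.33, to EpiLC means of 73.4, 110 and 95.1 TPM. P3h1, a prolyl hydroxylase, fell by 1.11, 0.92 and 1.79. Loxl2, a lysyl oxidase that crosslinks type IV collagen, rose in XY cells by 2.12, and the XX value was 0.39 (adjusted p = 0.176). The difference of these transitions was -1.73 (SE 0.29, adjusted p = 4.87e-04).

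Of 9 tested receptors, 6 rose and 1 fell in XX, 7 rose in XY, and 5 rose and 2 fell in Tet3-/- cells, with medians of 1.24, 1.46 and 1.07. Scaled values gave 6 higher and 2 lower in XX, 6 higher in XY, and 6 higher and 2 lower in Tet3-/- cells. Ddr1, a collagen receptor kinase, rose by 3.77, 4.46 and 3.95, from 1.46, 0.986 and 1.65 TPM to 32.0, 42.7 and 41.5 TPM. Bcam, a receptor for the alpha 5 chain encoded by Lama5, rose by 3.81 in XX, 1.78 in XY and 3.27 in Tet3-/- cells, with a larger rise in XX than in XY by 2.03 (SE 0.37, adjusted p = 0.00101). Ddr2 fell by 1.14 in XX and 1.93 in Tet3-/- cells. Itgb4, the integrin beta chain of the hemidesmosome, which binds the laminin that holds the Lamb3 chain, was higher in XX than in XY EpiLC by 1.50 (SE 0.24, adjusted p = 1.48e-04). None of the matrix partners, biosynthesis genes or receptors was called by limma between Tet3-/- and XX cells in mESC or in EpiLC. At an unadjusted p under 0.05 there were 0, 5 and 1 in mESC and 1, 1 and 1 in EpiLC. On scaled values 0, 2 and 0 were called in mESC and 2, 1 and 0 in EpiLC, beside 3.19% and 5.46% of all genes.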

How the data were processed

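RNA of 19 mouse libraries was measured as TPM per transcript, in one deposited table in which each column sums to 1000000. Per the submitters' processing notes, FastQC 0.11.7, Trimmomatic 0.35, Salmon 1.1.0 and the build GRCm38 were used by the authors. TPM keeps no read depth, which is therefore unknown, and counting intervals cannot be given. Transcripts were summed per gene with GENCODE M21 (1096 of 140948 not matched, at most 0.215% of TPM). Genes at 1 TPM or more in 3 or more libraries were tested with limma 3.58.1 (R 4.3.3; lmFit and eBayes with trend) on log2(TPM + 1), all 6 groups in one fit with 9 contrasts, with Benjamini-Hochberg adjustment over all 14972 genes and a threshold of 0.05. The script was tested on simulated data. Alternatives were scaling, pseudocount, filters, the groups fitted, a replicate block and leaving out each library. Values in every library are given for members with a mean of at least 5 TPM in a group, and of each related list the 2 highest and 2 lowest called changes of a comparison could be named. Counts over members at 1 TPM in 3 or more libraries of each state were added after the values were seen. Values of 1 tested member are not reported here, though counts include it. The members and lists were chosen with earlier results of these data known. Same-numbered Tet3-/- mESC and EpiLC libraries may hold one mutant line each: their deviations from group means correlated at 0.27, 0.30 and -0.02 for mutants #1, #3 and #4.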

Additional observations from a re-analysis of the deposited data

Results flagged for a closer look

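In the 4 Tet3-/- mESC libraries, mutant #4 stood apart from the other 3 for Col2a1 (1.54 TPM) and Col5a1 (0.886 TPM), where its gap to the next library took most of the group's range. Chance flags about 1 in 20 such groups, and 23 members were looked at.

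The rise from mESC to EpiLC differed between Tet3-/- and XX cells for Lamb3 (-1.34 on the log2 scale) and Col5a3 (-1.00), both smaller in Tet3-/- cells by the limma test of the difference. Col5a3 was tested only because XX EpiLC reached 1 TPM, and Col4a5 and Col4a6 only because XY EpiLC did, which fixed the direction of their differences. Lamb3 was tested only through XX and Tet3-/- EpiLC, and Col5a2 through cells of the LF2 line, which favoured a larger rise in XX than in XY. Between XX and XY cells the change from mESC to EpiLC differed by the same test for 11 members. The difference was 2.22 for Lamb3, 2.42 for Col5a2 and 1.26 for Col5a3, all with the larger rise in XX. It was -1.89 for Col4a1, -1.17 for Col4a2, -1.29 for Col4a5, -1.32 for Col4a6, -1.58 for Lamb1, -1.54 for Col18a1 and -1.28 for Col9a3, all with the larger rise in XY, and -1.44 for Lama1, which fell further in XX.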

How the results depend on the processing

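No value that was called on TPM changed its direction under any alternative run. Of 89 called values, 83 stayed called on median-of-ratios scaling, 84 with a pseudocount of 0.1, 77 with no filter on low values, 77 with only the compared groups in the fit and 80 with the replicate block. Counts of called members moved by over 1.5 times as follows, and the cause was not tested except that a filter at 5 TPM leaves fewer genes to test. With that filter the transition counts were 11 in XX, 11 in XY and 10 in Tet3-/- cells. It left 0 (mESC) and 1 (EpiLC) for Tet3-/- against XX, 2 and 9 for XX against XY, and 0 and 6 for the differences of the Tet3-/- and XX transitions and of the XX and XY transitions. With no filter they were 29 in the XY transition, 1 for Tet3-/- against XX mESC and 22 for XX against XY EpiLC. All 55 members were tested without the filter, against 23 in the main run, so these counts do not compare directly. The share of all genes called was not computed for either change of the filter. Median-of-ratios scaling gave 4 for Tet3-/- against XX EpiLC and 7 for XX against XY mESC, and quantile normalization 4 and 8. A pseudocount of 0.1 gave 7 for XX against XY mESC and 0 for the difference of the Tet3-/- and XX transitions. With only the compared groups fitted, the counts were 0 for Tet3-/- against XX in each state and 2 for XX against XY mESC. Requiring a log2 change of 1 or more in either direction gave 11 in the Tet3-/- transition, 0 for Tet3-/- against XX mESC, 1 for XX against XY mESC and 1 for the difference of the Tet3-/- and XX transitions. With the replicate block the count was 0 for Tet3-/- against XX mESC and 0 for the difference of the Tet3-/- and XX transitions; other counts moved less. Same-numbered libraries did not correlate above 0.1 throughout in any comparison, and not every library correlated best with its own number.

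Leaving out 1 library gave 13 to 17 called members in the XX, 17 to 19 in the XY and 14 to 18 in the Tet3-/- transition. It gave 0 to 2 for Tet3-/- against XX mESC, 2 to 3 in EpiLC, 1 to 4 for XX against XY mESC (1 without XX mESC 3), 13 to 15 in EpiLC, 2 to 2 for the difference of the Tet3-/- and XX transitions and 9 to 12 for that of XX and XY. Among values that were not called, Lamb2 for XX against XY EpiLC was 0.03 and ranged from -0.13 to 0.12 with a library left out (-0.05 without XX EpiLC 2 and -0.13 without XY EpiLC 1), and Col2a1 for the difference of the XX and XY transitions went from 0.27 to -0.74 with a pseudocount of 0.1.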
